A study of Homo sapiens with 20 samples.

Results

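The genes described here are the core subunits of Polycomb repressive complex 2 (PRC2) and the enzymes that add or oxidise methyl groups on DNA, followed while human neural progenitor cells became neurons. They are 10 genes among 20237 coding gene records: EZH1, EZH2, EED and SUZ12 of PRC2, the DNA methyltransferases DNMT1, DNMT3A and DNMT3B, and the dioxygenases TET1, TET2 and TET3. They were taken by name, as the coding records that carry these symbols. Each symbol had 1 coding record, and none of the 10 records was merged with another gene.

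The source of the polyadenylated RNA was the H1 line of human embryonic stem cells, turned into neural progenitors, so all samples share 1 genetic background. Day 0 cells grew on Matrigel in proliferation medium with FGF, the factor that keeps progenitors dividing. All later cells had been moved to differentiation medium, without FGF and with BDNF, a neurotrophin. Of the 20 samples, 2 belong to day 5, where the submitters left out 1 outlying culture, and 3 to each of days 0, 1, 2, 4, 11 and 18. The cells of the last 3 collections had been moved on day 4 to wells coated with poly-D-lysine and laminin. The step from day 4 to day 5 thus cannot be told apart from the change of surface. Comparisons of day 5, 11 or 18 with days 0 to 4, the whole course among them, also span this change. The files give a single FPKM value per record and day, the authors' estimate over all cultures. FPKM counts the fragments of a transcript scaled by its length and by the mapped fragments of the library, so levels of different genes can be set side by side. With that single value a day, no spread between cultures can be given for any value here, the depth behind the values is unknown, and no comparison below carries a test of its own.

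PRC2 methylates a lysine of histone H3 and so marks developmental genes that are kept silent. EZH1 and EZH2 are its alternative catalytic subunits, EED reads the mark, and SUZ12 holds the complex together. EZH2 is known as the form of dividing cells and EZH1 as that of cells that have left the cycle. DNMT1 copies DNA methylation onto the new strand after replication, DNMT3A and DNMT3B set it at new sites, and the TET enzymes oxidise 5-methylcytosine as a first step of its removal. Neurons are known for high TET activity and for methylation laid down by DNMT3A.

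The markers of the cultures were checked first. At day 0 the progenitor genes NES and SOX2 stood at 513 and 126 FPKM, while the pluripotency factors POU5F1 and NANOG were listed at no more than 0.108 and 0.0207 FPKM on any day. Other genes of the 8 progenitor markers were low at day 0 and higher at day 18, namely PAX6 (4.31 and 10.4 FPKM) and HES5 (1.95 and 20.0). Of 10 neuronal markers, 8 were at least 2-fold higher at day 18 than at day 0 relative to the median of all records, beside 13.9% of coding records. Among them was STMN2, from 32.3 to 727 FPKM. Of 8 glial markers, 6 stayed below 1 FPKM on every day, GFAP among them, while S100B had 8.68 FPKM at the start and 4.25 at the end. DPPA4, a gene of pluripotent cells, had 9.72 and 2.25 FPKM. Mesenchymal transcripts were present too. The 7 markers of that list summed to 276 FPKM at day 0 and to 35.7 at day 18, mostly from COL3A1 (238 and 30.5) and COL1A2 (33.6 and 3.81). All 18 cell cycle genes examined were at least 2-fold lower at day 18, beside 12.8% of coding records, and their summed level went from 1537 to 295 FPKM. The mesenchymal and cell cycle sums were thus lower at day 18, as were the FPKM values of EZH2, EED, SUZ12, DNMT1, DNMT3A and DNMT3B described below, whereas EZH1 and TET2 were higher and TET1 and TET3 were at 95.9% and 98.2% of day 0. The part of the mesenchymal and cell cycle levels in those values was not tested. In bulk RNA, fewer cells of a type and less RNA per cell cannot be told apart. A value of 0 in these files need not mean silence, as the record of the beta-actin gene ACTB, merged with other symbols, is listed at 0 on all days. None of the 10 genes is listed at 0, and their lowest value was 5.15 FPKM.

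The scaling of the days matters for every statement on direction. In the 14443 records whose FPKM averaged 1 or more, the median log2 change of FPKM + 0.1 from day 0 to day 18 was -0.56. Of the 11793 coding records among them, 8979 (76.1%) were lower at day 18 as deposited. FPKM values below are as deposited, and changes are given relative to this median, with the deposited change beside them where the direction differs. Shares within a family on the same day do not depend on this scaling.

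Among the PRC2 genes, EZH2 had the highest level on every day. In the order of the sampled days (0, 1, 2 and 4, then 5, 11 and 18 after replating) it had 48.0, 39.6, 37.2, 38.8, 33.1, 37.3 and 19.7 FPKM. The level thus stayed between 33.1 and 39.6 from day 1 to day 11, and was almost 2-fold lower a week later. EZH2 lies on chromosome 7, from 148504475 to 148581414 on the minus strand (hg19, as are all record positions here).

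EZH1, on chromosome 17 from 40852294 to 40897071 (minus strand), went the other way. Its values on the 7 days, in the same order, were 5.15, 6.92, 8.93, 8.16, 7.89, 7.75 and 8.45 FPKM. Day 0 was the lowest of the 7 days and day 2 the highest. EZH1 was the gene with the lowest level of the 10 at day 0, and at day 18 it stood above SUZ12 and EED.

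**Figure D1:**
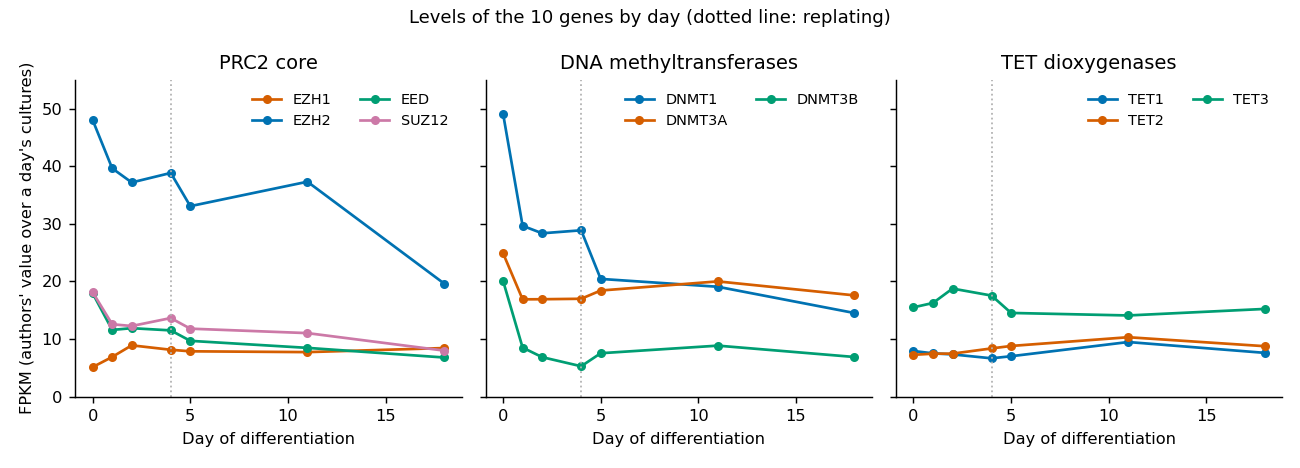
FPKM of the 10 genes (vertical axis, linear) against the day of differentiation (horizontal axis), with 1 point per gene and day, the authors' value over the cultures of that day, and no error bars because no values of single cultures were used. EZH2 and DNMT1 start at 48.0 and 49.1 FPKM and end at 19.7 and 14.5, DNMT3B goes from 20.1 to 8.54 within the first day, and the TET genes stay within 6.67 to 18.8 throughout.

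The balance of the alternative catalytic subunits followed from both. EZH2 made up 90.3%, 85.1%, 80.6%, 82.6%, 80.7%, 82.8% and 69.9% of the summed FPKM of EZH1 and EZH2 on the 7 days. The ratio of EZH2 to EZH1 went from 9.32 to 4.17 within the first 2 days, lay between 4.17 and 4.81 up to day 11, and was 2.32 at day 18. The ratio thus went down early and again late, with a plateau in between, and EZH2 remained the more abundant transcript on all 7 days.

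EED (chromosome 11, 85955815 to 85989778, plus strand) and SUZ12 (chromosome 17, 30264044 to 30328057, plus strand) started at almost the same level. EED had 17.9, 11.6, 11.9, 11.5, 9.70, 8.49 and 6.82 FPKM on the 7 days. SUZ12 had 18.1, 12.6, 12.3, 13.7, 11.8, 11.0 and 8.01 FPKM. Both were highest at day 0 and lowest at day 18, and the ratio of SUZ12 to EED stayed between 1.01 and 1.30. The catalytic pair EZH1 and EZH2 summed to 2.96 times the level of EED at day 0 and to 4.12 times at day 18, with the highest value, 5.31, at day 11. Relative to the median of all records, the change from day 0 to day 18 was -0.73 for EZH2, -0.83 for EED, -0.61 for SUZ12 and 1.26 for EZH1 on the log2 scale.

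DNMT1, the maintenance enzyme, had the highest level of the 10 genes at day 0 and only the fourth highest at day 18. Over the course its FPKM values were 49.1, 29.7, 28.4, 28.9, 20.4, 19.1 and 14.5. The lower levels came in steps, with near level stretches over days 1 to 4 and again over days 5 to 11. Day 18 was at 29.6% of day 0. The record lies on chromosome 19, from 10244023 to 10305755 on the minus strand.

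DNMT3B (chromosome 20, 31350191 to 31397161, plus strand) had 20.1, 8.54, 6.88, 5.30, 7.56, 8.87 and 6.90 FPKM over the same days. Its level at day 1 was 42.5% of that at day 0. Day 4 was the lowest point, and every later day was higher than day 4. Unlike DNMT1, DNMT3B was thus not lowest at the end. All exon bases of DNMT3B are shared with a record on the other strand, described below, so its level is uncertain.

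DNMT3A, on chromosome 2 from 25455846 to 25565459 (minus strand), had 24.9, 16.9, 16.9, 17, 18.4, 20.0 and 17.6 FPKM in the same order. After the first day its range was thus narrow, 16.9 to 20.0. Its log2 change over the 18 days was 0.06 once the median was subtracted and -0.50 before, so its direction over the whole course depended on the scaling.

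Within the DNA methyltransferases, the share of DNMT1 in the summed FPKM was 52.2% on day 0, 56.4% on day 4, 44.0% on day 5 and 37.2% on day 18. The share of DNMT3A was higher on each sampled day than on the one before, going from 26.5% over 33.2% (day 4) to 45.1%. For DNMT3B it was 21.4% to begin with, 10.3% on day 4 and 17.7% at the end. DNMT1 thus had the largest share up to day 5, and DNMT3A at days 11 and 18. DNMT1 stood at 1.09 times the sum of DNMT3A and DNMT3B on day 0, at 1.30 times on day 4, at 0.787 on day 5 and at 0.593 on day 18.

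**Figure D2:**
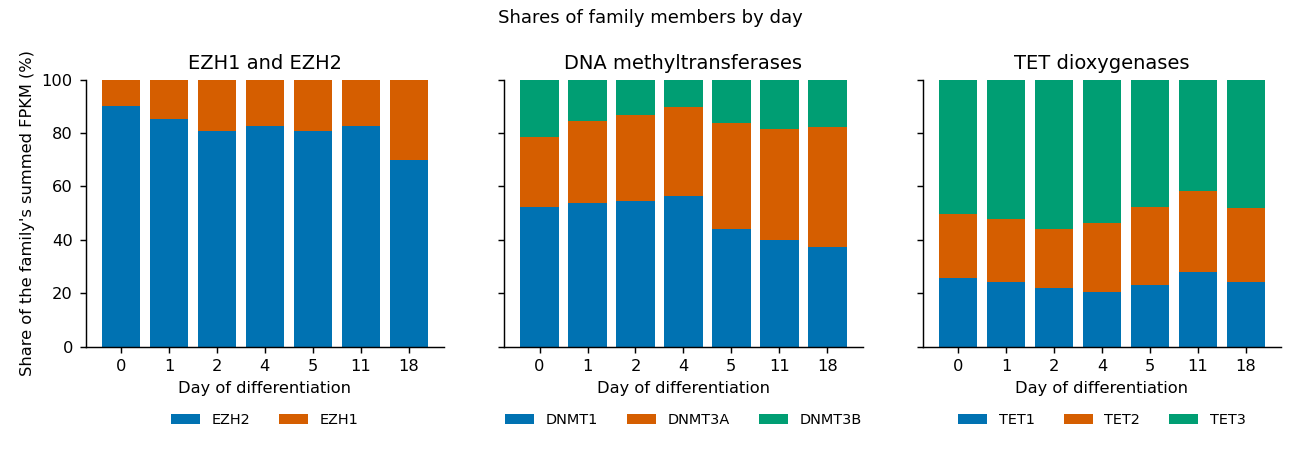
Share in percent of each family's summed FPKM (vertical axis) on each sampled day (horizontal axis, days not to scale), stacked by gene for EZH1 and EZH2, the 3 DNA methyltransferases and the 3 TET genes. The EZH1 part widens as EZH2 goes from 90.3% to 69.9%, DNMT3A overtakes DNMT1 by day 11, and TET3 keeps between 41.6% and 55.8% of the TET sum.

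The TET genes had the smallest ratios of highest to lowest FPKM as deposited. Relative to the median, TET3 had the smallest span of the 10 genes, 0.53 log2 units. TET1 and TET2 spanned 0.73 and 0.82, more than DNMT3A with 0.57. TET3 (chromosome 2, 74273450 to 74335300, plus strand) was the most abundant of the TET genes, with 15.5, 16.3, 18.8, 17.6, 14.5, 14.1 and 15.2 FPKM on the 7 days. TET2 (chromosome 4, 106067943 to 106200958, plus strand) had 7.28, 7.48, 7.49, 8.39, 8.82, 10.3 and 8.78 on these days. TET1 (chromosome 10, 70320117 to 70454238, plus strand) had 7.94, 7.54, 7.35, 6.67, 7.04, 9.50 and 7.62. TET1 and TET2 were both highest at day 11, and the highest day exceeded the lowest by 1.42-fold in each, and by 1.33-fold in TET3.

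The summed level of the 3 TET genes stayed between 30.4 and 33.9 FPKM over the 7 days, while that of the 3 DNA methyltransferases was 94.1 on day 0, 55.1 on day 1 and 39.0 on day 18. Their ratio, which does not depend on the scaling of the days, was 3.06 before FGF was withdrawn, 1.76 on day 1, 1.41 on day 11 and 1.23 on day 18. Relative to the median, the change from day 0 to day 18 was 0.50 for TET1, 0.82 for TET2 and 0.53 for TET3. As deposited it was -0.06 for TET1 and -0.03 for TET3, so only TET2 was higher under both scalings.

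Set against all coding records, the whole-course changes were moderate. Of the 10 genes, 1 was at least 2-fold higher at day 18 relative to the median (EZH1), beside 13.9% of the 11793 coding records, and 1 was at least 2-fold lower (DNMT1), beside 12.8%. These counts are near the background. EZH1 lay at percentile 89.7 of the changes of coding records and DNMT1 at percentile 9.68, and DNMT3B followed with a log2 change of -0.97 at percentile 13.5. As deposited, EZH2, EED, SUZ12, DNMT1 and DNMT3B were at least 2-fold lower, 5 of the 10 genes beside 29.9% of coding records, and none was 2-fold higher, beside 7.57%.

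**Figure D3:**
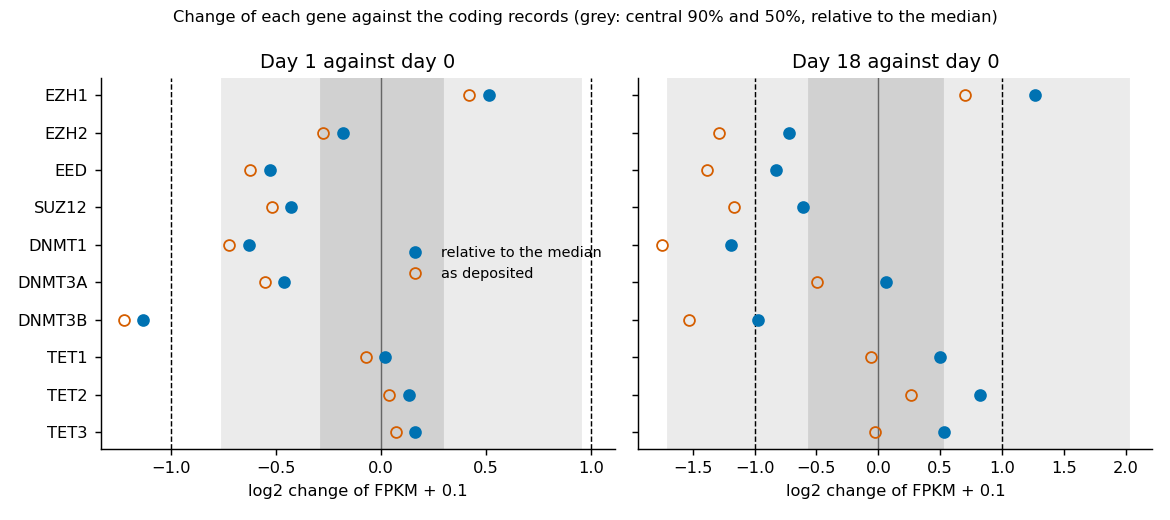
Log2 change of FPKM + 0.1 (horizontal axis) for each of the 10 genes, from day 0 to day 1 on the left and from day 0 to day 18 on the right, relative to the median of all records (filled) and as deposited (open), with dashed lines at 2-fold. Grey bands hold the central 50% and 90% of the 11793 coding records, and DNMT3B at day 1, at -1.13, is the only filled point outside them.

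The first day without FGF held a large part of the difference for several genes. From day 0 to day 1, DNMT3B was the 1 gene at least 2-fold lower, beside 2.21% of coding records, with a log2 change of -1.13 relative to the median at percentile 1.43. No gene was 2-fold higher at this step, beside 4.51% of coding records. EED, SUZ12, DNMT1 and DNMT3A changed by between -0.43 and -0.63, EZH2 by -0.18 and EZH1 by 0.51. Of the difference in FPKM between day 0 and day 18, 57.0% for EED, 54.8% for SUZ12, 56.2% for DNMT1 and 87.6% for DNMT3B lay in this first day, against 29.5% for EZH2, and DNMT3A was lower at day 1 than at day 18. These shares are on the linear scale. On the log2 scale as deposited, the first day held -0.63 of -1.38 for EED, -0.52 of -1.17 for SUZ12 and -0.72 of -1.75 for DNMT1, less than the later days together. Over the last week the change of EZH2 was -0.65, where EED had -0.04 and SUZ12 -0.18. A late difference was not particular to EZH2, since CBX2 had -0.21 by day 11 and -0.75 by day 18, beside -0.08 and -0.73 for EZH2.

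For the single steps, each gene was set beside the 7800 coding records with a mean of 5 to 50 FPKM, a range that holds the mean of all 10 genes. Outside the central 90% of these records, which leaves out 10.0% of them by construction, were EZH1 from day 1 to day 2 (0.32), EZH2 from day 11 to day 18 (-0.65), DNMT1 from day 4 to day 5 (-0.43), and DNMT3B at each of the first 4 steps, with -1.13, -0.35, -0.37 and 0.58. The value of -0.37 from day 2 to day 4 was at the edge, the limit also being -0.37 at 2 decimals. None of the 10 genes was outside over the whole course, nor between days 5 and 11. The higher DNMT3B and lower DNMT1 on day 5 coincide with replating. In all, 7 of 60 changes of a gene at a step (11.7%) were outside, which is near the 10.0% left out by construction. With 1 value a day, these steps are descriptions of size, and the range of records was chosen after the values were seen.

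**Figure D4:**
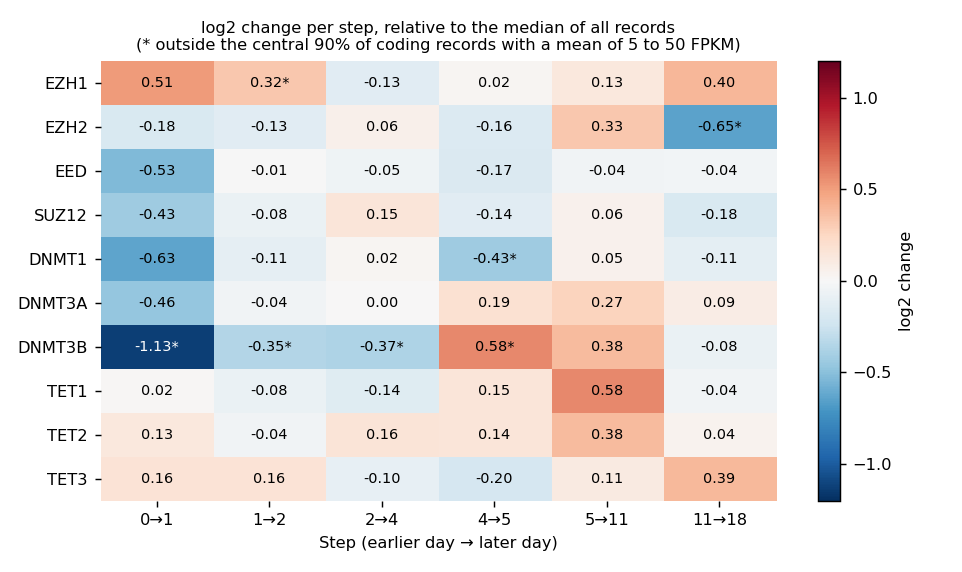
Log2 change of FPKM + 0.1 of each gene (rows) at each of the 6 steps between sampled days (columns), relative to the median of all records, with blue for lower and red for higher on the later day. Asterisks mark the 7 cells outside the central 90% of coding records with a mean of 5 to 50 FPKM, 11.7% of all 60 and thus near the background, and DNMT3B holds 4 of them.

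Records of long intergenic noncoding RNAs on the other strand overlap 4 of the 10 genes. The study names default options for its counting, under which strand is not used, and no source describes the libraries as stranded, so reads of such pairs cannot be told apart. The overlap is complete for DNMT3B: all 4969 exon bases of its record lie in exons of the record linc-DNMT3B-AS, whose 2 transcripts hold 50344 exon bases and a single exon of 31149 bases. The values of linc-DNMT3B-AS were 0.677, 0.382, 0.346, 0.304, 0.505, 0.643 and 0.593 FPKM. It was thus highest at day 0 and lowest at day 4 like DNMT3B. The level of DNMT3B is uncertain by whatever was assigned to this long record. As FPKM is scaled by length, a low FPKM of so long a record need not mean few fragments. For DNMT1, TET1 and TET3, 6.11%, 22.2% and 32.8% of the exon bases overlap such records, none of which exceeded 0.192 FPKM on any day. EZH1, EZH2, EED, SUZ12, DNMT3A and TET2 have no exon overlap with another record.

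The promoters of the 10 genes were compared with each other. E2F factors are known activators of genes for DNA synthesis, so the RefSeq promoter windows (GRCh38.p14, 250 bases before to 50 after the start) were searched on both strands for the E2F letters TTTCGCGC, TTTGGCGC, TTTCCCGC and TTTGCCGC, none of whose matches overlaps another match in these genes. All 10 genes matched the table, with 20 windows for alternative starts, some of them overlapping. The letters stood in 1 window each of EZH1, EZH2, SUZ12 and DNMT1, thus in 4 of 20 windows (20%). Of the 18508 windows of coding symbols 3.99% hold them, and of all 35116 windows 3.31%. These shares were not matched for base composition, and all of the searched letters contain a CpG. The 4 matching windows hold 30 to 46 CpG dinucleotides and 67% to 74.7% G and C, where the median of coding symbols was 21 CpG. Each of the 4 matches is a different one of the searched letters. They are shown 5′ to 3′ on the strand of each gene with 11 bases on either side and the letters in capitals:
EZH2: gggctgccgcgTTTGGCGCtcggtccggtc
DNMT1: catcggtttccGCGCGAAAagccggggcgc
SUZ12: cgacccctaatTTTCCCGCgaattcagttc
EZH1: gcggggttttgGCGGCAAAtgacagtagtg

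These windows lie at chr7:148884272-148884301 (minus strand) for EZH2, chr19:10194937-10194966 (minus) for DNMT1, chr17:31936807-31936836 (plus) for SUZ12 and chr17:42745137-42745166 (minus) for EZH1. In EZH2 the letters begin at base 2, the start being base 1, and in DNMT1 at base -2, while in SUZ12 and EZH1 they begin at -189 and -115. The gene orientation has the letters in EZH2 and SUZ12 and their reverse complement in DNMT1 and EZH1. Of the 4 genes, EZH2, SUZ12 and DNMT1 were lower at day 18 and EZH1 was higher. The single windows of EED and DNMT3B, which were also lower, do not hold them. Nor do the windows of DNMT3A, TET1 and TET3, which were lower only as deposited, or those of TET2, which was higher. The records of EED and DNMT3B have 2 and 4 groups of transcript starts. Those of EZH1 and DNMT1, also with a single window, have 3 and 5. Other starts of these genes were thus not searched. Whether the single window is at the start in use in these cells was not tested. The letters TTTGAA or TTCGAA, known from late cell cycle promoters as the CHR element, were found in windows of SUZ12, DNMT3A and TET2, that is in 3 of 20 windows (15%) and in 13.7% of those of coding symbols. CpG dinucleotides numbered between 16 and 46 in the windows of the PRC2 genes, 30 in that of DNMT1 and 3 in the single window of DNMT3B. They numbered 18 to 46 in DNMT3A, 6 to 11 in TET1, 13 to 35 in TET2 and 33 to 45 in TET3. The median of coding symbols was 21.

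The partners of PRC2 were described next, from a list of 9 genes, 8 of them with an average of 1 FPKM or more. Of these, 0 were at least 2-fold higher and 1 was at least 2-fold lower at day 18, beside 13.9% and 12.8% of coding records. The median change relative to all records was -0.0046, beside -0.04 for all coding records. The 1 lower gene was PHF19, an accessory subunit that binds a methylated lysine of histone H3, with 30.7, 13, 6.95 and 2.99 FPKM on days 0, 1, 11 and 18 (log2 change -2.76). The histone chaperone RBBP7 had 77.7 and 28.2 FPKM at days 0 and 18 (-0.90), while its close relative RBBP4 had 29.9 and 19.8 (-0.03). JARID2, an accessory subunit without demethylase activity, had 22.8 and 15.8 (0.03). AEBP2 had 6.67 and 3.85 (-0.22), PHF1 18.4 and 16 (0.36), and MTF2 17.3 and 13.6 (0.21), with day 0 first in each pair. C17orf96, with a mean under 1 FPKM, had 0.971 and 0.604. The record of LCOR, merged with another symbol, had 10.8 and 11.3 (0.62).

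In Polycomb repressive complex 1, which places ubiquitin on histone H2A, 22 of 23 listed subunits averaged 1 FPKM or more, with a median change of 0.06. Of these, 2 were at least 2-fold higher and 2 at least 2-fold lower relative to the median, which in each direction is 2 of 22 beside the 13.9% and 12.8% of coding records given above. PCGF5, which defines a variant form of the complex, had 43.4, 26.0, 7.16 and 3.79 FPKM on days 0, 1, 11 and 18. PCGF6 went from 7.43 to 2.36. The record of BMI1 (PCGF4), merged with another symbol, was among the higher ones, at 28.1 on day 0 and at 45.6 on day 18, a change that as deposited was 0.70 on the log2 scale and so below 2-fold. CBX2, a reader of the PRC2 mark, had 27.2 and 10.9 (-0.75). CBX7, another such reader, was under a mean of 1 FPKM, with 0.299 and 0.749.

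Among 6 genes for the removal of Polycomb marks, 2 were at least 2-fold higher and 0 were 2-fold lower relative to the median, beside 13.9% and 12.8% of coding records, and the list's median was -0.14. KDM6B, a demethylase of the PRC2 mark, had 12.8, 19.8 and 21.8 FPKM on days 0, 1 and 18, a log2 change of 0.76 as deposited and so below 2-fold without recentring. ASXL3, a cofactor of the deubiquitinase BAP1, had 2.03, 2.56 and 10.7 on these days. The related demethylase KDM6A had 7.26 at day 0 and 4.13 at day 18 (-0.24).

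Of 5 partners of the DNA methyltransferases, 4 averaged 1 FPKM or more. Of these, 2 were at least 2-fold lower on day 18, beside 12.8% of coding records, and 0 were 2-fold higher, beside 13.9%. The list's median change was -0.996. UHRF1, which brings DNMT1 to newly replicated DNA, had 46.1, 23.5, 15.1 and 6.23 FPKM on days 0, 1, 11 and 18, a log2 change of -2.31 relative to the median where DNMT1 had -1.19. HELLS, a chromatin remodeler needed for DNA methylation, had 14.2 and 3.42 (-1.47). UHRF2 had 14.4 and 10.1 (0.05), and USP7, a deubiquitinase that binds DNMT1 and UHRF1, 44.6 and 20.9 (-0.53). DNMT3L, a cofactor of the de novo enzymes in germ cells, was listed at or close to 0 on every day.

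**Figure D5:**
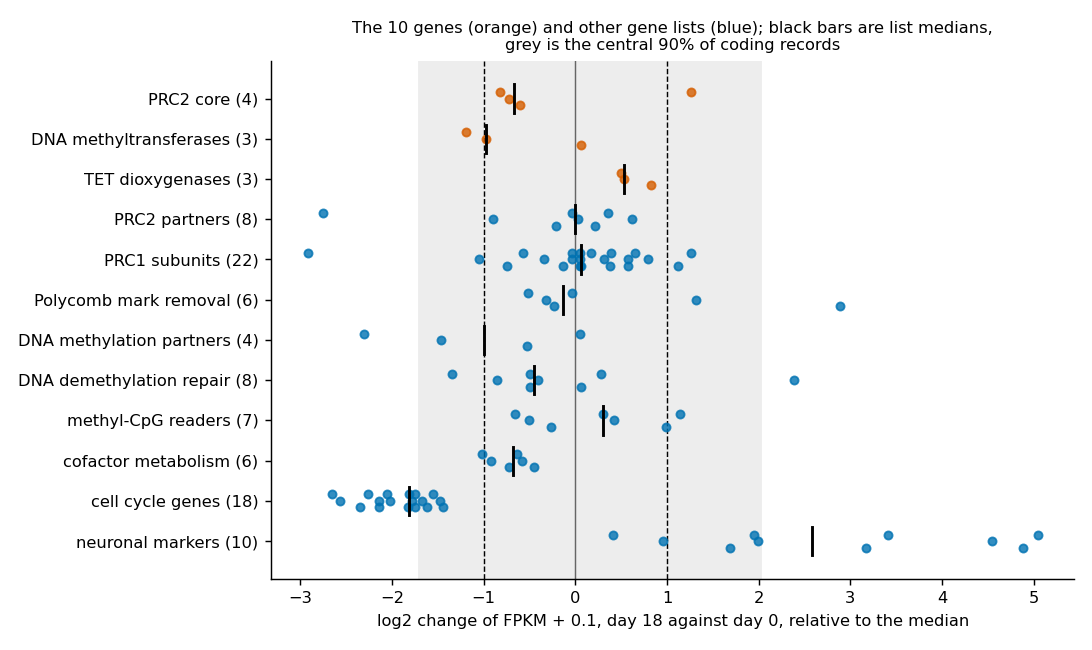
Log2 change of FPKM + 0.1 from day 0 to day 18 relative to the median of all records (horizontal axis), 1 point per gene with a mean of at least 1 FPKM, for the 10 genes (orange) and other lists (blue) with the number of genes in brackets. Black bars are list medians, dashed lines mark 2-fold and grey holds the central 90% of coding records. The cell cycle genes all lie below -1 with a median of -1.82, further down than any of the 10 genes.

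The cell cycle genes had a median change of -1.82 relative to the median of all records, with values between those of PCNA (-1.44) and RRM2 (-2.66). All 18 were thus lower at day 18 than any of the 10 genes was on this scale, DNMT1 being at -1.19 and EZH2 at -0.73. MKI67, a marker of cycling cells, went from 74.2 FPKM at day 0 to 14.2 at day 18. The summed level of this list was 1537, 894, 673 and 295 FPKM on days 0, 1, 11 and 18. Over the last week, where EZH2 went from 37.3 to 19.7 FPKM, the cell cycle sum thus also went down by more than 2-fold. The values do not show how much of the EZH2 or DNMT1 level belongs to cycling cells.

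Finally, the coding records with the most similar time course were found for the 3 genes whose level relative to the median spanned at least 1 log2 unit, namely EZH1, DNMT1 and DNMT3B. The measure was the root mean square difference of centred log2 profiles over the 7 days. The 5 records nearest to EZH1 were NPDC1 (0.046), C16orf46, CCDC146, PRPF40B and KLC4 (0.064), and NPDC1 had 21.2 FPKM at day 0 and 33.1 at day 18. Those nearest to DNMT1 were KPNB1 (0.069), a nuclear import receptor, C15orf23, TMEM97, C13orf37 and TOMM40 (0.088), and EED came at rank 78 (0.132) of the coding records. Among those nearest to DNMT3B were LPIN1 (0.149), PLEKHB1, TDG and FRMD4B (0.195). TDG, the glycosylase that removes oxidised methylcytosine made by the TET enzymes, had 33.3, 14.9, 14.5, 13.4, 14.5, 15.1 and 12.4 FPKM on the 7 days. Profiles of 7 points share the same samples and scaling, so the likeness is a description only.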

How the data were processed

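Polyadenylated RNA was sequenced in 20 samples over 7 days, and samples were grouped by the day in their titles. According to the methods, reads were aligned by the authors with TopHat2 (hg19), Cufflinks built transcripts, and Cuffdiff2 at default options gave FPKM for coding genes and lincRNAs (versions not given in the sources used here). The deposited FPKM values are 1 per record and day. The columns used with values of a single sample numbered 0. A further deposited table holds the authors' own comparisons of 6 pairs of adjacent days (fold changes, test statistics, p-values, q-values), which were not used. Its record names, exons and coordinates were. Without replicate values or depth, no test, interval or detection limit was computed.

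Changes were computed with Python 3.11.15, pandas 2.3.3 and numpy 2.4.6 as differences of log2(FPKM + 0.1), which understates changes of low genes, minus their median in records averaging 1 FPKM or more. A change of 2-fold was past the threshold, and the background was all coding records with that average. The computation was tested on simulated data. Figures were drawn with matplotlib 3.10.9. Named were the 10 genes, up to 4 genes past the threshold from each other list, all PRC2 partners, UHRF1 and the nearest 5 records by profile. Other genes were named after their values were seen, and some items of these lists are not reported here. Members and lists were chosen with earlier results of these data known.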

Additional observations from a re-analysis of the deposited data

How the results depend on the processing

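Without recentring, 0 members in place of 1 were at least 2-fold higher at day 18 than at day 0. Those at least 2-fold lower numbered 5 in place of 1. The shares of coding records were 7.57% and 29.9%, in place of 13.9% and 12.8%. Dropping the filter on the mean puts the median of all records at 0. The members past 2-fold were then also 0 and 5, beside 8.02% and 20.1% of coding records. At 1.5-fold they were 2 and 5, beside 22.9% and 24.1%. With day 11 in place of day 18 there were 0 higher (beside 11.0% of coding records), and with day 1 in place of day 0 there were 0 higher and 0 lower (9.48% and 8.08%). At 1.5-fold, 2 members were lower at day 1 than at day 0 (9.22%), and 1 at day 18 than at day 11 (5.55%). A further alternative, chosen after seeing the data, was the central 90% of coding records with a mean FPKM of 5 to 50. It leaves out 10.0% of these records by construction in each comparison. By this rule, 0 members were outside over the whole course. At each of the steps to day 2 and to day 5, 1 was above and 1 below. At each of those to day 4 and to day 18, 1 was below. The other 99 counts of members kept their value within 1.5 times. Over 10 alternatives, the whole-course log2 change ranged between 0.70 and 1.42 for EZH1, -1.75 and -0.53 for DNMT1, and -1.28 and -0.08 for EZH2. DNMT3B reached 0.19 with day 1 in place of day 0. Not all 10 could move a change. The 1.5-fold threshold leaves it as it was, and so does summing all coding records of a symbol, which cannot alter a count either. Dropping the filter gave the same changes as no recentring. No paired analysis was possible because the files hold 1 value per day over all cultures, so replicates could not be left out either. The depth is unknown.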

Other observations

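Other genes around DNA methylation were examined from lists of their own, with changes from day 0 to day 18 relative to the median of all records. Of 8 genes linked to DNA demethylation by repair, 1 was at least 2-fold higher and 1 at least 2-fold lower, beside 13.9% and 12.8% of coding records. The list median was -0.45. GADD45G, a stress-induced gene also active in neurogenesis, had 2.75, 12.6, 24.7 and 10.0 FPKM on days 0, 1, 11 and 18, and its relative GADD45B 3.92, 2.49, 0.779 and 0.974. TDG went from 33.3 to 12.4 FPKM (-0.86). Of 7 readers of methylated CpG, 1 was at least 2-fold higher, beside 13.9% of coding records, and the list's median was 0.30. This was ZBTB4, from 5.49 to 8.24 FPKM, which as deposited is a log2 change of 0.58 and below 2-fold. MBD2 had 14.5 and 6.14 (-0.66) and MBD3 58.5 and 27.9 (-0.51).

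All 6 genes of cofactor metabolism were lower than the median change, beside 6137 of 11793 coding records, with a list median of -0.68. Of the 6, 1 was at least 2-fold lower, beside 12.8% of coding records. This was AHCY, which clears the product of methyl transfer, from 106 to 35.4 FPKM. MAT2A, which makes the methyl donor, had 147 and 73.0 FPKM (-0.45). IDH1 had 143 and 64.7 (-0.58) and IDH2 87.3 and 31.2 (-0.92). Of 8 housekeeping genes, 7 averaged 1 FPKM or more, with a median of -0.42 relative to all records. Of these, 1 was at least 2-fold lower, HPRT1, beside 12.8% of coding records. The 8 progenitor markers had a median of 0.04, with HES5 (1.95 to 20.0 FPKM) and PAX6 (4.31 to 10.4) at least 2-fold higher, beside 13.9% of coding records.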
